A study of Mus musculus with 4 samples.

Results

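Brown fat makes heat mainly through the uncoupling protein Ucp1, and 10 genes of the cycles proposed to do so without it were examined here in Tsku knockout mice. Tsukushi, the product of Tsku, is a small leucine-rich proteoglycan that cells secrete. The genes are Ckb, Ckmt1, Ckmt2, Gatm, Gamt, Slc6a8, Alpl, Atp2a2, Ryr2 and Pm20d1. They were taken by name, and all 10 were found among the 22180 genes that had a probe set annotated with a single gene symbol. Where a gene had several probe sets, the probe set brightest on average was used. Of the 10 members, 6 lay above background on all 4 arrays, 2 on some arrays and 2 on none. Background was taken on each array as the 95th percentile of 1405 probe sets that report olfactory or vomeronasal receptors.

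In the creatine cycle, mitochondrial creatine kinase spends ATP to phosphorylate creatine, and a phosphatase then splits phosphocreatine without useful work, so that the mitochondria must make more ATP and heat is released. In the calcium cycle, the pump of the endoplasmic reticulum spends ATP to load calcium that a release channel lets out again. Both were described chiefly in beige and brown fat of mice, and some of their proteins have close relatives that belong to muscle. Pm20d1 is a secreted enzyme that joins fatty acids to amino acids, and its products can uncouple mitochondria.

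The tissue, which the labels call BAT without naming the depot, came from male C57BL/6 mice, 4 months old and fed chow, with 2 wild-type samples and 2 samples from Tsku knockout mice, 1 whole-transcript array each. The strain, diet, age and sex were the same in both groups; the knockout allele, and whether it acts in every tissue, are not given in the sources used here. The labels call the samples biological replicates but do not say that they came from separate mice, so a p-value reflects the spread among these samples alone, and that spread may be technical. Tsku had no listed probe set, and the genotypes therefore rest on the labels.

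Values are the deposited log2 expression values, and differences are knockout minus wild type on the log2 scale. A level cannot be set against that of another gene, because each probe set has its own response. Array medians lay between 0.56 and 0.58, and between 50.2% and 53.6% of genes lay above background on an array. All but 1 of 15 adipocyte markers, some of brown fat and some of all adipocytes, were above background on all 4 arrays. Ucp1 differed by 0.55 (SE 0.18). Precision is limited by the number of arrays: over all genes, the 95% interval of a difference had a median half-width of 0.52.

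The comparison asks whether genes of these cycles differ in brown fat that lacks Tsku. Ckb, the cytosolic brain-type creatine kinase that is also the main form in brown fat, measured lower in the knockout by 0.76, to 59.1% of the wild-type signal. Ckmt2, the sarcomeric mitochondrial creatine kinase, measured lower and was not above background on either knockout array. Atp2a2, the calcium pump SERCA2, differed by -0.19. For Slc6a8, Gamt, Alpl and Pm20d1 the arrays of the genotypes overlapped. Gatm, near background, measured 0.27 higher with no overlap, and Ckmt1 and Ryr2 were not above background on any array. None of the 10 passed an adjusted p under 0.05 (limma, Benjamini-Hochberg adjustment over all genes, the smallest member value being 0.872). Over all genes 0 of 22180 passed (0%), with 1234 at an unadjusted p under 0.05.

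Among the members 6 measured lower and 4 higher, with a median log2 difference of -0.14, against 0.02 over all genes tested, of which 47.4% measured lower. The arrays of the genotypes did not overlap for 3 members with lower values (15.8% of all genes) and for 1 with higher values (19.4% of all genes). An unadjusted p under 0.05 was reached by 2 members, both lower (2.67% of all genes), and by 0 members higher (2.89% of all genes). The 3 members grouped as muscle-type, Ckmt2, Atp2a2 and Ryr2, had differences below 0. Atp2a2 also has a form for most cells, so the group is not specific to muscle. Its median of -0.19 was the value of Atp2a2, and the difference of Ryr2 (-0.09) was of values not above background. Without wild-type replicate 2 there were 2 below 0 and 1 above. The other 7 split into 3 lower and 4 higher, with a median of 0.03, and that median ran from -0.32 without knockout replicate 2 to 0.12 without knockout replicate 1.

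The sequences before the start sites of Ckb, Ckmt2 and Ckm are shown because these 3 creatine kinase genes were measured lower in the same arrays. A promoter entry was found for 7 of the 10 members in RefSeq (GRCm38.p6). Each sequence is the 250 bases upstream of the start, 5′ to 3′ on the strand of the gene. Capitals mark any exact match, on either strand, to CANNTG (the E-box that muscle regulators of the MyoD family bind) or to TATAAA, a form of the TATA box.
Ckb, chr12:111672339-111672588, minus strand: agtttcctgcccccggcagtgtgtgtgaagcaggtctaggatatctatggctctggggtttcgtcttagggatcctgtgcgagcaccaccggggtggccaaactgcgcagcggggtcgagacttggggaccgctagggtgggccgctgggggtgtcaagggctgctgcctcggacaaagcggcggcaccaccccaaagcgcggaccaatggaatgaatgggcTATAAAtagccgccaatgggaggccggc
Ckmt2, chr13:91876886-91877135, minus strand: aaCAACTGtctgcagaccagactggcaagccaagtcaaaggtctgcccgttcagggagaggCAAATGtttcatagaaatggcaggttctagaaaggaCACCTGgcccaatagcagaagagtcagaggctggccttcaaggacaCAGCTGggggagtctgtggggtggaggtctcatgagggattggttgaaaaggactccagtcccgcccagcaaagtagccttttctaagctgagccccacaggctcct
Ckm, chr7:19410844-19411093, plus strand: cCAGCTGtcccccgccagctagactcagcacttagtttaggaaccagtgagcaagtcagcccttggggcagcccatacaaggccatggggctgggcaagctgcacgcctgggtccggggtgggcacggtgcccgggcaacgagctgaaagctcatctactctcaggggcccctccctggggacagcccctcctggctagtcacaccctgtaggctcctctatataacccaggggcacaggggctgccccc
The Ckb window held 0 matches to CANNTG and 1 match to TATAAA, which began 28 bases before the start site. The Ckmt2 window held 4 matches to CANNTG and 0 to TATAAA, and the Ckm window held 1 match to CANNTG and 0 to TATAAA. Of 32851 promoters in the same table, 66.2% held CANNTG and 12.4% TATAAA in that window. These are matches of letters only, and no binding was measured.

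**Figure D1:**
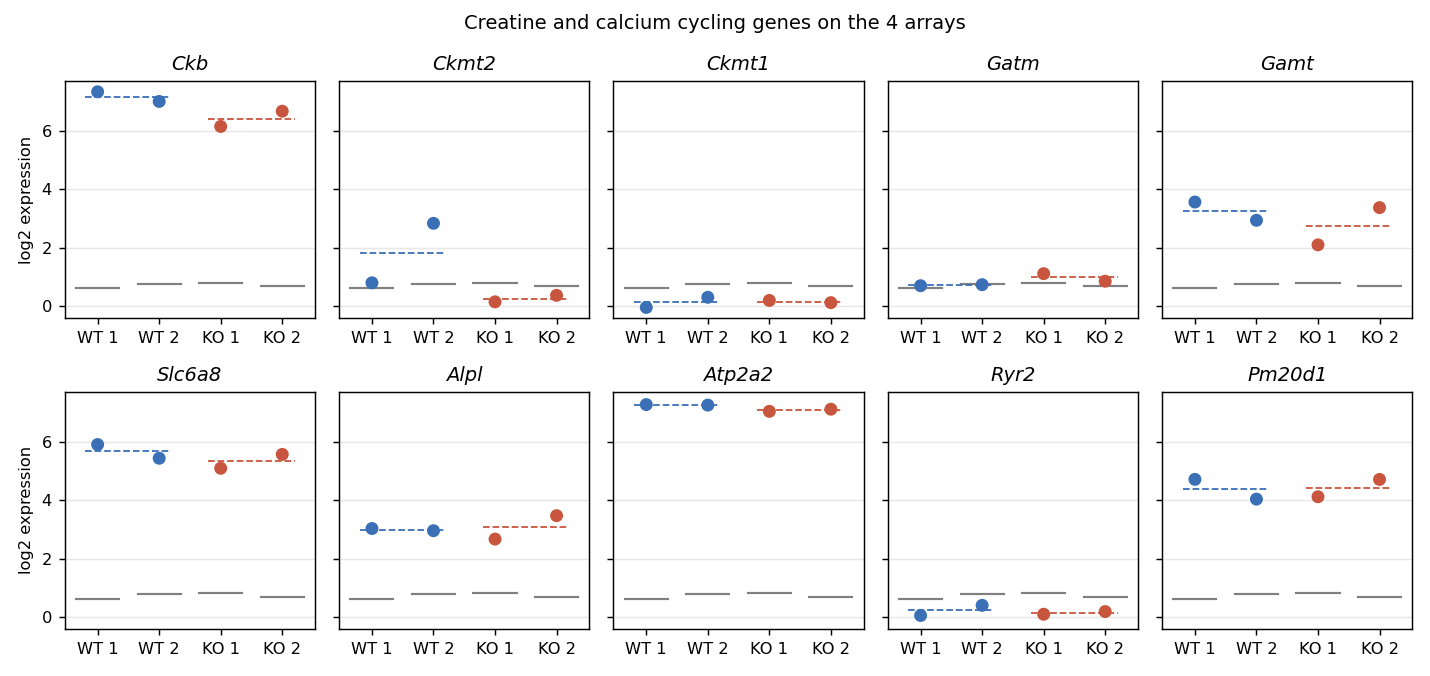
Log2 expression (vertical axis) of each of the 10 members on the 4 arrays (WT, wild type, blue; KO, Tsku knockout, red). Dashed lines are the means of each genotype (n = 2) and grey bars the background of each array. The knockout points of Ckb lie below both wild-type points, and Ckmt2 is above background in wild type only. Gamt and Pm20d1 are spread widely within each genotype, Slc6a8 and Ckb less so. The knockout arrays differ by 0.48 for Slc6a8 and by 0.52 for Ckb.

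Ckb can shuttle phosphate between ATP and creatine, and it has been placed in the mitochondria of thermogenic fat. It read 7.34 and 7.01 in wild type against 6.16 and 6.68 in the knockout. Both knockout values lay below both wild-type values, and the lowest was that of knockout replicate 1. The means were 7.18 ± 0.23 (SD, n = 2) and 6.42 ± 0.37 (SD, n = 2). The difference was -0.76 (SE 0.25, 95% interval -1.38 to -0.14, limma adjusted p = 0.872), and over the pairs of a knockout with a wild-type array it ran from -1.19 to -0.33. Ckb thus measured lower in each such pair. It stayed between -1.02 and -0.50 with single arrays left out.

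Ckmt2 carries out the same reaction at the inner mitochondrial membrane and is best known from heart and skeletal muscle. It read 0.80 and 2.84 in wild type against 0.15 and 0.38 in the knockout. The knockout arrays were both below background, and wild-type replicate 2 stood far above wild-type replicate 1, which lay just over background. Wild type was at least 2.10-fold higher, a bound of means taken against the background of the knockout arrays, and with wild-type replicate 1 as the only wild-type array at least 1.04-fold. The fitted difference was -1.56 (SE 0.62, 95% interval -3.08 to -0.04, limma adjusted p = 0.872). This size rested on wild-type replicate 2: the difference was -0.54 without that array and -2.58 without wild-type replicate 1, where alone the gene passed the threshold (limma adjusted p = 0.0290). That fit has 1 wild-type array, which is assumed to vary like the others. The gene's own spread comes there only from the knockout arrays, both below background, and limma takes the error largely from all genes. Ckmt1, the ubiquitous mitochondrial form, was not above background on any array, with values from -0.04 to 0.31, so that no change in it could be seen here.

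Ckm, the muscle creatine kinase, is the counterpart of Ckb and no member. It read 4.18 and 4.70 in wild type against 3.60 and 0.99 in the knockout, a difference of -2.15 (SE 0.79, limma adjusted p = 0.872). The arrays did not overlap, and knockout replicate 2 lay far below the other three; the difference was -0.85 without it and -3.46 without knockout replicate 1. A dimmer Ckm probe set, with values from -0.12 to 0.28, differed by 0.04, and with the mean of both probe sets the difference was -1.06 (limma unadjusted p = 0.0637, adjusted p = 0.872). The order of the arrays differed between the forms. Ckm and Ckmt2 were highest on wild-type replicate 2, whereas Ckb was highest on wild-type replicate 1. Ckm was lowest on knockout replicate 2 but Ckb and Ckmt2 on knockout replicate 1, Ckmt2 being below background on both knockout arrays.

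To make creatine, Gatm forms guanidinoacetate from arginine and glycine, and Gamt then methylates guanidinoacetate to creatine. Gatm, which catalyses the first step, read 0.71 and 0.74 in wild type against 1.12 and 0.86 in the knockout. These values straddle background, 3 of the 4 arrays being above it. The knockout values were the higher ones, and the difference was 0.27 (95% interval -0.21 to 0.74). Gamt read 3.57 and 2.94 in wild type against 2.10 and 3.38 in the knockout. Knockout replicate 1 was the lowest and knockout replicate 2 lay between the wild-type arrays. The difference of -0.52 (95% interval -1.61 to 0.58) turned to 0.12 without knockout replicate 1 and was -1.15 without knockout replicate 2.

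Slc6a8 is the plasma membrane transporter that brings creatine into the cell. It read 5.90 and 5.44 in wild type against 5.09 and 5.57 in the knockout, and the genotypes overlapped. The difference was -0.34 (95% interval -0.98 to 0.31, limma adjusted p = 0.900), with -0.58 without knockout replicate 2 and -0.10 without knockout replicate 1.

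Alpl, the tissue-nonspecific alkaline phosphatase, has been proposed as the enzyme that splits phosphocreatine in thermogenic fat. It read 3.03 and 2.95 in wild type against 2.67 and 3.47 in the knockout. The knockout arrays lay on either side of the wild-type pair, and the difference was 0.08 (95% interval -0.64 to 0.80). Its other probe set was dim, with 0.11 and 0.09 in wild type against 0.94 and 0.43 in the knockout, a difference of 0.59. The probe sets therefore gave unlike differences, and of the dimmer one only knockout replicate 1 was above background. Without knockout replicate 2 the difference of the brighter probe set turned to -0.32.

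Pm20d1 stands apart from both cycles as a secreted enzyme. It read 4.71 and 4.04 in wild type against 4.12 and 4.71 in the knockout, so that each genotype had a high and a low array. The difference was 0.04 (95% interval -0.73 to 0.81), which leaves room for a change of either sign. It turned to -0.30 without wild-type replicate 2 and to -0.26 without knockout replicate 2.

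The calcium pump Atp2a2 refills the store of the endoplasmic reticulum, with a form for slow and cardiac muscle and another for most cells, which this probe set was not used to separate. It read 7.27 and 7.25 in wild type against 7.04 and 7.11 in the knockout. The arrays did not overlap, and the pairs of arrays differed by -0.23 to -0.14. The difference was -0.19 (SE 0.18, 95% interval -0.63 to 0.25, limma adjusted p = 0.919), within the moderated error that limma takes in part from all genes. Ryr2, the cardiac form of the ryanodine receptor that releases calcium, was not above background on any array, with values from 0.05 to 0.40. The channel proposed for calcium cycling in fat was therefore not measurable here.

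The other pumps and channels of these families gave differences of both signs. Atp2a1, the pump of fast skeletal muscle, read 5.02 and 5.60 in wild type against 4.70 and 2.70 in the knockout, a difference of -1.61 (SE 0.63). Knockout replicate 2 lay far below the rest, as it did for Ckm, and the difference was -0.61 without it and -2.61 without knockout replicate 1. Ryr1, the skeletal muscle channel, read 0.89 and 1.05 in wild type and was below background on both knockout arrays, so that wild type was at least 1.16-fold higher. With wild-type replicate 1 as the only wild-type array that bound was 1.10-fold. A dimmer Ryr1 probe set, below background on every array, differed by -0.38. Atp2a3, a pump known from blood cells and epithelia, read 1.51 and 1.37 in wild type against 2.19 and 1.97 in the knockout, a difference of 0.64 (SE 0.19). Ryr3 was not above background on any array.

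**Figure D2:**
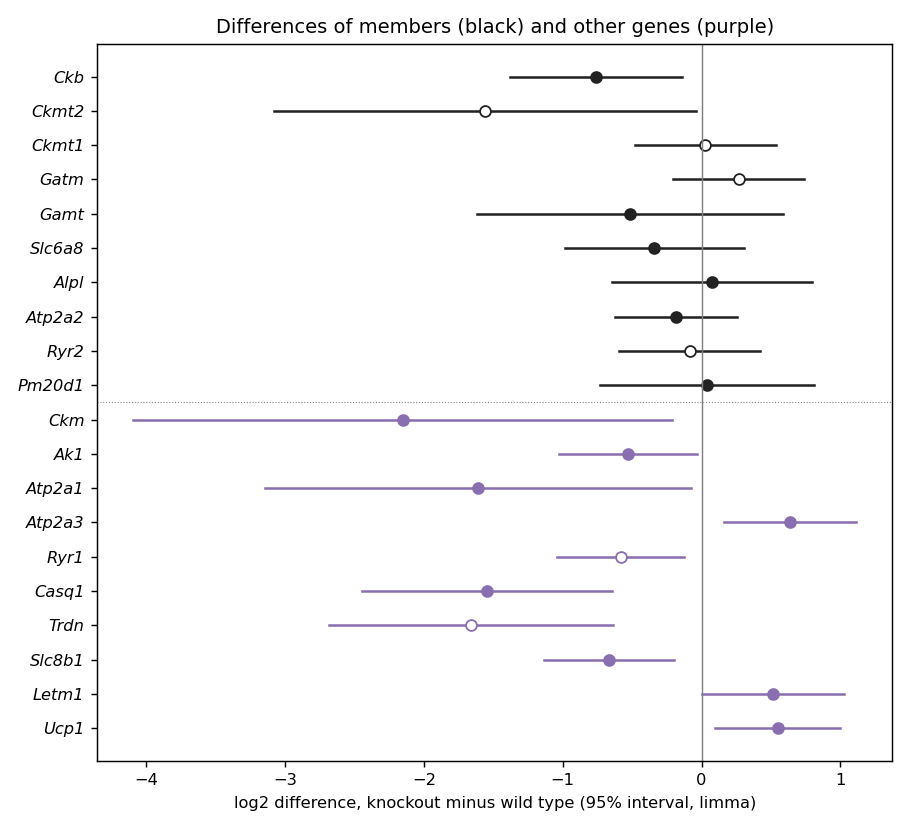
Log2 difference, knockout minus wild type, with its 95% interval from limma, for the 10 members (black) and other genes named (purple). Open points mark genes that were not above background on all 4 arrays. The interval of Ckb runs from -1.38 to -0.14, those of Ckm, Atp2a1 and Ckmt2 are the widest, and none passed an adjusted p under 0.05.

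Other genes of the pathways were taken from lists that include Ckm, Atp2a1 and Ryr1. Of 14 genes of creatine handling, phosphate shuttling and N-acyl amino acid turnover, 11 were measured, with 6 lower and 5 higher (median -0.05). Past an unadjusted p of 0.05 there were 2, both lower (2.67% of all genes), and 0 higher (2.89% of all genes). They were Ckm and Ak1, the cytosolic adenylate kinase, which read 4.17 and 4.45 in wild type against 3.69 and 3.86 in the knockout. The carriers that exchange ATP and ADP across the inner mitochondrial membrane differed by 0.09 (Slc25a4, -0.02 without wild-type replicate 2) and 0.21 (Slc25a5). Pm20d2, a relative of Pm20d1, differed by -0.46 (SE 0.35), with 0.02 without wild-type replicate 1 and -0.94 when wild-type replicate 2 was left out.

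Of 38 genes of calcium uptake, storage and release, 33 were measured, with 16 lower and 17 higher (median 0.06), and 6 of them were above background on no array. Past an unadjusted p of 0.05 there were 5 lower (2.67% of all genes) and 2 higher (2.89% of all genes), and 0 passed over all genes. Atp2a1, Ryr1, Casq1 and Trdn of these encode parts of the calcium store of skeletal muscle. Casq1, the calcium buffer calsequestrin, differed by -1.55 (SE 0.37), and Trdn, triadin, which anchors it to the release channel, by -1.66 (SE 0.42). The fifth was Slc8b1, the sodium-calcium exchanger that lets calcium out of mitochondria. It read 4.95 and 4.90 in wild type against 4.14 and 4.38 in the knockout, a difference of -0.67 (SE 0.19, limma adjusted p = 0.872). Letm1, an ion exchanger of the inner mitochondrial membrane, read 5.57 and 5.42 in wild type against 6.18 and 5.84 in the knockout, a difference of 0.51 (SE 0.21). The regulators of the pump, Sln and Pln, were not above background on any array, and Adra1a was not measured.

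Markers of skeletal muscle measured lower in the knockout, as the skeletal muscle forms Ckm, Atp2a1 and Ryr1 did. All 24 of the list were measured, 23 of them lower in the knockout, with a median of -1.41 and a range from -3.39 to 0.34. Above background on all arrays were 15, the other 9 on some. Their summed linear signal, in the arbitrary units of the arrays, was 413.6 and 622.5 in wild type against 298.6 and 149.6 in the knockout. Tnni2, a fast troponin, differed by -2.25 and its partner Tnnc2 by -1.82. Without knockout replicate 2 the median of the list was -0.93, and without wild-type replicate 1 it was -2.03. In bulk tissue fewer cells of a type and less RNA per cell cannot be told apart. Markers of slow or cardiac muscle, of which 0 of 12 were above background on all arrays and 5 on none, summed to 18.0 and 25.1 in wild type against 19.5 and 15.3 in the knockout.

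After the mean of the arrays was taken from each gene, the skeletal muscle list had a median of 0.35 and 1.23 in the wild-type samples, against -0.29 and -1.10 in the knockout samples. Ckb had 0.54 and 0.22, then -0.64 and -0.12. Ckb was therefore lowest on knockout replicate 1, where the muscle list was not at its lowest. Ckmt2, Ckm and Atp2a1 were highest on wild-type replicate 2, as was the muscle list. Ckm and Atp2a1 were also lowest on knockout replicate 2, as the list was. Ckmt2 was instead lowest on knockout replicate 1 (-0.89, a value below background) and had -0.24 on wild-type replicate 1. The part of muscle RNA in these differences was not tested.

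Other cell types also differed between the arrays. Macrophage markers were lower in 13 of 14 cases (median -0.44, and -0.23 without knockout replicate 1). Their summed signal was 274.0 and 284.9 in wild type against 158.9 and 282.2 in the knockout, the low value being that of knockout replicate 1. On that array Ckb, Gamt, Slc6a8, Alpl, Atp2a2 and Ckmt2 were lowest too, Ckmt2 being below background there. Adipocyte markers, some of brown fat and some of all adipocytes, were higher in 13 of 15 cases (median 0.27). Liver markers, 5 of 14 of them above background on all arrays, were higher in 13 of 14 cases (median 0.31); without knockout replicate 1 they were higher in 9 (median 0.11), and without knockout replicate 2 in 14 (median 0.70). Endothelial markers were higher in 7 of 12 cases (median 0.04), and their median deviation was lowest on knockout replicate 1 as well (-0.19) and highest on knockout replicate 2 (0.22). They were higher in 12 without knockout replicate 1 (median 0.22) and in 3 without knockout replicate 2 (median -0.14). Of the 10 neuron and glia markers measured, 2 were above background on all arrays and 6 on none. The part of these cell types in the members' values was not tested.

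**Figure D3:**
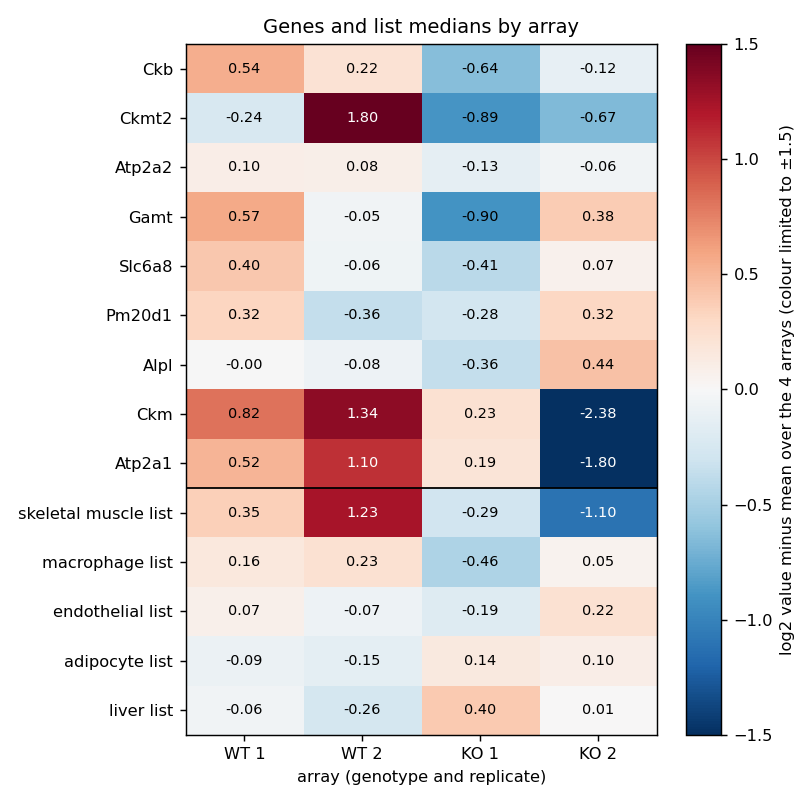
Log2 value of each gene minus its mean over the 4 arrays, by array, with the medians of marker lists in the rows under the line. Ckmt2, Ckm, Atp2a1 and the skeletal muscle list are highest on wild-type replicate 2. Ckb, Ckmt2, Atp2a2, Gamt, Slc6a8, Alpl and the macrophage and endothelial lists are lowest on knockout replicate 1. Ckm, Atp2a1 and the skeletal muscle list are lowest on knockout replicate 2.

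Single arrays were also left out in turn. For Ckb, Ckmt2, Gatm and Atp2a2, whose arrays do not overlap between genotypes, the sign could not turn, and only the size is informative. Of the members whose arrays overlap, Slc6a8 kept its sign. The sign turned for Ckmt1, Gamt, Alpl, Ryr2 and Pm20d1.

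**Figure D4:**
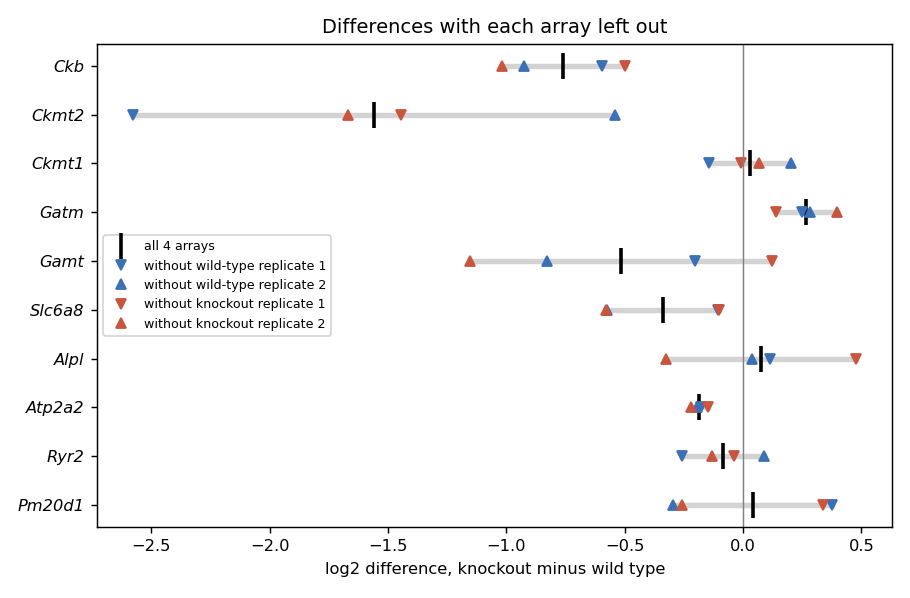
Log2 difference of each member, knockout minus wild type, with all arrays (black bar) and with each array left out (triangles); the grey line spans the latter. Ckb ranges from -1.02 to -0.50 and Ckmt2 from -2.58 to -0.54, while Gamt, Alpl and Pm20d1 cross 0.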

How the data were processed

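Total RNA was labelled with biotin and hybridised to 4 whole-transcript arrays, per the labels' protocols. The authors deposited log2 expression values of 41345 probe sets for each sample. The submitters' processing notes list RMA, oligo and limma, giving no role or version; the genome build is not given in the sources used here. The base of the logarithm was inferred from RMA, whose output is log2, and the levels carry an offset of unstated origin that cancels in differences. RMA pulls dim probe sets together, so that differences of dim genes are understated.

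The platform annotation gave 23521 probe sets 1 gene symbol, 1814 several and 16010 none, and the first were reduced to 22180 genes, 1082 of them with several probe sets. Genotypes were compared with lmFit and eBayes in limma 3.58.1 (R 4.3.3), two-sided, with no block or filter. Residual degrees of freedom were 2 and prior ones 3.96. A lower bound of a fold sets the brighter genotype's mean against, per array, the higher of background and the dim value. On simulated data the fit was required to return planted differences of the right mean size, which does not test how many changed genes would pass. The members, gene lists and background rule were chosen with earlier results of these data known. Named are all members, Ckm, Ryr1, Atp2a1, Ucp1, Sln, Pln, Adra1a, pathway genes with an unadjusted p under 0.05 and up to 3 markers per cell type; Slc25a4, Slc25a5, Pm20d2 and Ryr3 were added after their values were seen. Alternatives covered the replicate block, the probe set of a gene, filters, normalization, the variance model and each array left out.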

Additional observations from a re-analysis of the deposited data

How the results depend on the processing

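The median difference of the members was -0.14 and lay between -0.16 and -0.14 under the other probe set rules and scalings. Filters changed the set: it was -0.26 over the 8 members kept at the median and -0.19 over the 9 kept at the lower quartile. With single arrays left out it ranged from -0.29 to -0.02. The count of genes past the threshold, 0 of 22180, was 1 with the replicate block, 1 with a mean trend, and from 0 to 15 with single arrays left out, the highest being without wild-type replicate 1, with 2 when wild-type replicate 2 was the array left out. The replicate numbers were not treated as pairs. The deviations of the replicate 1 arrays from their genotype means correlated at -0.07 across genes, so no strong shared effect of the number was seen. With 2 arrays per genotype, this cannot show whether samples of the same number were handled together. With the block no member passed.

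Cyclic loess turned Ckmt1, which is below background, from 0.03 to -0.0048. With single arrays left out, differences ran from -0.15 to 0.20 for Ckmt1, from -1.15 to 0.12 for Gamt, from -0.32 to 0.48 for Alpl, from -0.26 to 0.088 for Ryr2 and from -0.30 to 0.38 for Pm20d1; Ckmt2 alone passed in any of these (limma adjusted p = 0.0290 without wild-type replicate 1, over a range up to 0.999), in a fit whose 1 wild-type array adds no spread of its own. Ckmt1 and Ryr2 lie below background on all arrays, so that no change in them can be measured, and Ckmt2 lies below it in the knockout, so that its fold has only a lower bound.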
